A study of Homo sapiens with 12 samples.

Results

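The members described here are the small nucleolar RNAs (snoRNAs) and small Cajal body RNAs (scaRNAs) of HCT116 cells, a human colorectal carcinoma line. They were chosen by name and by level: the genes whose symbol begins with SNORA, SNORD or SCARNA followed by a digit and whose estimated counts summed to 20 or more over 12 libraries. Of 63241 genes in the table, 553 had such a symbol and 134 reached the threshold: 46 box C/D snoRNAs (SNORD), 74 box H/ACA snoRNAs (SNORA) and 14 scaRNAs. Members were thus selected on the summed counts, which are given only as a description. Just inside the threshold stood SNORD111 with 20.0 and SNORD13P3 with 20.7 counts, and just outside it stood SNORA18 with 19.8 and SNORD4A with 19.2. Of the 419 genes below it, 236 had no count in any library.

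Total RNA depleted of ribosomal RNA had been sequenced from 4 groups of 3 dishes. In the POLR1A-depleted group the largest subunit of RNA polymerase I carried an auxin-inducible degron, AID1. The plant receptor OsTIR1 was induced in this line with doxycycline (1 µg/mL), given 24 h ahead of the ligand, and 500 µM IAA (indole-3-acetic acid) then acted for 8 h. In the POLR2A-depleted group the largest subunit of RNA polymerase II carried the AID2 degron, and cells had 1 µM 5-Ph-IAA, a modified auxin, for 8 h. Wild-type cells had actinomycin D, a DNA-binding transcription inhibitor, at 5 µg/mL for 6 h, and the controls were wild-type cells with DMSO for 8 h. The extraction text gives harvest at 6 h. Untreated libraries of the degron lines were not analysed here, so line, inducer and ligand cannot be told apart from each depletion. The dishes were treated on the same day and are described as technical replicates, so p-values measure the spread between these dishes. The comparisons with the controls share the 3 control libraries.

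Box C/D snoRNAs guide methylation of ribosomal RNA by the methyltransferase fibrillarin, and box H/ACA snoRNAs guide pseudouridylation by dyskerin. A few snoRNAs are instead listed here under processing of the ribosomal RNA precursor. They are U3 (the SNORD3 genes), U22 (SNORD22), U13 (SNORD13), U8 (SNORD118), U17 (SNORA73A and SNORA73B) and, among others, SNORA63. The scaRNAs carry the same boxes and guide the modification of spliceosomal small nuclear RNAs in Cajal bodies. Most human members of these families are cut out of introns of host genes transcribed by RNA polymerase II, many of which encode ribosomal proteins or are small nucleolar RNA host genes (SNHG) with little known function of the spliced product. U3 and SCARNA2 are exceptions with promoters of their own.

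All 134 members had a mature sequence in GENCODE 29 on GRCh38. The letters TGATGA (box C) stood within the first 20 bases and CTGA (box D) within the last 20 bases of 26 of 46 box C/D members (56.5%), of 5 of 14 scaRNAs (35.7%) and of 0 of 74 box H/ACA members. ACA followed by exactly 3 bases to the end stood in 51 of 74 box H/ACA members (68.9%), 7 of 14 scaRNAs and 1 of 46 box C/D members (2.2%). Only the given strand was searched, and a sequence without these letters may hold a variant box. Of the matching genes under the count threshold, 170 of 268 SNORD genes held both C/D letters (63.4%) and 92 of 139 SNORA genes held the ACA (66.2%).

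The most abundant member was U3. Its 5 near-identical copies among the members lie on chromosome 17, a second SNORD3D gene of identical sequence had no count, and these sequences are shown because the counts were divided among the copies. SNORD3A is annotated at chr17:19188016-19188714 (+), SNORD3C at chr17:19189665-19190245 (-) and SNORD3D at chr17:19112419-19112636 (-) on GRCh38. The first 2 spans also hold a longer transcript, and the RNA of 217 nt is printed. Capitals mark box D in SNORD3A and, in the other copies, the bases that differ from SNORD3A.
SNORD3A: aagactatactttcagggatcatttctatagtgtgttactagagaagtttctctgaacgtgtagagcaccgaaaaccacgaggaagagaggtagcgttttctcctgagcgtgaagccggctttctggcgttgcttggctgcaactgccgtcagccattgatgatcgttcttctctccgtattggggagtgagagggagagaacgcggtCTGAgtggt
SNORD3C: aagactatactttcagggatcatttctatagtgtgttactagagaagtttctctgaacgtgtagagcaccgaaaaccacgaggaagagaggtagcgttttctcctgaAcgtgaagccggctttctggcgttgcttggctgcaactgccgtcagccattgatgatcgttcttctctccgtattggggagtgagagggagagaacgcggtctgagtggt
SNORD3D: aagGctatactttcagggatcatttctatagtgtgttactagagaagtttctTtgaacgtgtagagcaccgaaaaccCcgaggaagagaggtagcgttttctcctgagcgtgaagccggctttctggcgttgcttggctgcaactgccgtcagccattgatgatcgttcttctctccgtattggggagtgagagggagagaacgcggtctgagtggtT
Counted from the 5′ end of SNORD3A, SNORD3C differed by G108A and SNORD3D by A4G, C53T and A78C plus 1 added base at its end. SNORD3B-1 and SNORD3B-2 each differed from SNORD3A by A78C.

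The next sequences are the 5 box C/D snoRNAs under 100 nt that were called lower with actinomycin D, with SNORD22, a longer neighbour of SNORD28 in the same host gene. Their positions on GRCh38 are chr19:49489965-49490048 (+) for SNORD32A, chr9:133350456-133350528 (+) for SNORD36A, chr11:62854621-62854695 (-) for SNORD28, chr9:21524307-21524382 (-) for SNORD39, chr13:27255064-27255135 (+) for SNORD102 and chr11:62852910-62853035 (-) for SNORD22. Capitals mark TGATGA near the 5′ end, where present, and CTGA near the 3′ end.
SNORD32A: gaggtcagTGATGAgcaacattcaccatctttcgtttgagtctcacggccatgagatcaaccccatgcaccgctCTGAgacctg
SNORD36A: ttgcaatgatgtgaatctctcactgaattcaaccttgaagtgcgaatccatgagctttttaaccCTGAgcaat
SNORD28: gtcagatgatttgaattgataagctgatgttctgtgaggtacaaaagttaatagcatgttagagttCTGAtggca
SNORD39: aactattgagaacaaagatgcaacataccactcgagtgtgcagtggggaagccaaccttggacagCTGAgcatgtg
SNORD102: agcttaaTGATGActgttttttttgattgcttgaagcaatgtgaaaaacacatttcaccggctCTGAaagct
SNORD22: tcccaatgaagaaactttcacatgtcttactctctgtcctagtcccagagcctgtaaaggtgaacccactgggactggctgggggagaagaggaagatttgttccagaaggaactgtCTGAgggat
The annotation places SNORD32A over RPL13A, SNORD36A over RPL7A, SNORD102 over RPL21, all genes of the large ribosomal subunit, SNORD28 and SNORD22 over SNHG1, and SNORD39 in an intron of the long non-coding RNA MIR31HG. Except for SNORD39, these spans overlap exons of some annotated transcript of the host. Estimated counts may thus be divided between snoRNA and host. Summed counts were not whole numbers, for example 73.53 for SNORD32A and 118.11 for SNORD22. How far this sets the zeros and large changes of these genes was not tested.

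The last sequences are a box H/ACA snoRNA of ribosomal RNA cleavage and the scaRNA with the clearest change. SNORA73A lies in an intron of RCC1 at chr1:28507366-28507571 (+), and SCARNA12 lies over PHB2 at chr12:6967337-6967606 (-). Capitals mark the ACA of SNORA73A, and TGATGA and CTGA in SCARNA12.
SNORA73A: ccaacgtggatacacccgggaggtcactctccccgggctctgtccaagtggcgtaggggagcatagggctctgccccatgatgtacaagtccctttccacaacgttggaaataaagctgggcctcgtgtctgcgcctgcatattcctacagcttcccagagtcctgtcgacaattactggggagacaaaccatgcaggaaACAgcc
SCARNA12: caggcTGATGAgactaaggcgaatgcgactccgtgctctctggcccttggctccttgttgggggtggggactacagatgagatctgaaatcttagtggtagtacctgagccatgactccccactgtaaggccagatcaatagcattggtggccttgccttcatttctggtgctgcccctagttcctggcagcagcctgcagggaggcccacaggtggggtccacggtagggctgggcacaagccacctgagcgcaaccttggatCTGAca

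The members held 0.0578% to 0.131% of each library's counts, and totals ran from 11289272 to 27394059 counts. Box C/D members held 55.8% of the members' counts, box H/ACA members 23.4% and scaRNAs 20.8%. Length set the classes apart. Median lengths were 93.5 nt for box C/D members, 134 nt for box H/ACA members and 268 nt for scaRNAs. The 21 members of 180 nt or more held 90.4% of all members' counts, the 85 of at least 100 nt but under 180 nt held 8.47% and the 28 under 100 nt held 1.15%. Per 100 nt of length the median level was 6.70 CPM (CPM, here the library-scaled read count after TMM) in the longest set, 0.260 CPM in the middle set and 0.299 CPM in the shortest. How far short molecules are recovered by a total RNA kit was not tested, so these are levels in the libraries and not in the cell. The members of the imprinted brain clusters (SNORD115, SNORD116 and others) summed to at most 7.0 counts for each of their 127 genes, and none was a member.

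Of the 134 members, 70 passed the filter on low counts and were tested: 21 box C/D, 37 box H/ACA and 12 scaRNAs. The other 64 had between 20.0 and 92.0 counts in all 12 libraries together. All 21 members of 180 nt or more were tested, 40 of 85 in the middle set and 9 of 28 in the shortest set. A member that passed the filter only because of the group where it is high had to differ, so counts of calls describe the tested members. SNORD118 (U8), with 59.7 counts, was among those not tested.

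Libraries of the same group did not hold equal amounts of these RNAs. The POLR2A-depleted libraries had 961, 514 and 904 CPM of members in all, and the controls had 743, 1256 and 1108 CPM. The second POLR2A-depleted library and the first control library therefore stood apart on the low side. Members of 180 nt or more deviated from the group mean by a median of -0.48 (log2) in that POLR2A-depleted library and by -0.38 in that control library. The 40 tested small nuclear RNA genes deviated by -0.37 and -0.24 in these libraries, and 183 genes annotated as miscellaneous RNA by -0.12 and 0.01. The part of RNA recovery in this was not tested, and results that rest on these libraries are given with and without them. Both libraries were picked from the members' own levels, so calls made without them depend on that choice. Fewer cells and less of an RNA per cell cannot be told apart in such bulk libraries. Of the markers of colorectal epithelium, EPCAM, KRT8, KRT18, KRT19 and CDH1 were at 22.7 CPM or more in each library, CEACAM5 reached 0.184 CPM and LGALS4 0.912 CPM. A degron acts on protein, so the mRNA of its target is no check of depletion. POLR1A mRNA was at 145 to 151 CPM in POLR1A-depleted, 128 to 142 CPM in POLR2A-depleted, 177 to 203 CPM in actinomycin D and 230 to 249 CPM in control libraries. POLR2A mRNA was at 908 to 945 CPM in POLR1A-depleted, 1073 to 1110 CPM in POLR2A-depleted, 558 to 620 CPM in actinomycin D and 468 to 561 CPM in control libraries.

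**Figure D1:**
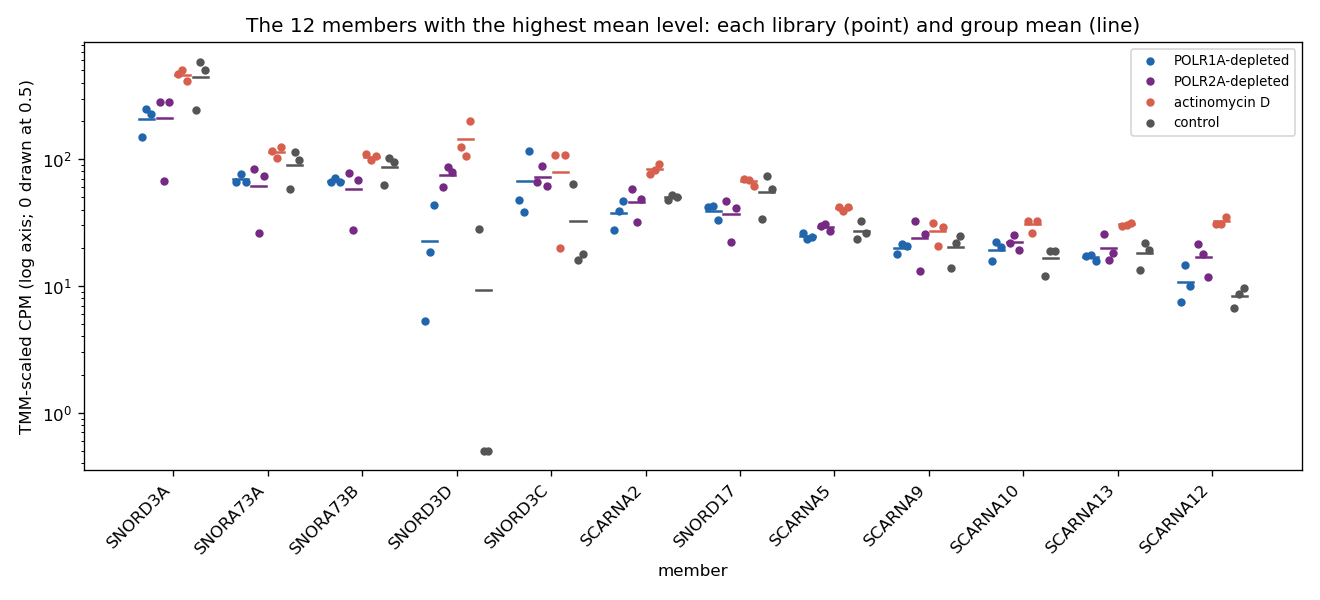
Level of the 12 members with the highest mean level in each library (points, TMM-scaled CPM on a log axis, with 0 drawn at 0.5) and the mean of each group (lines), for POLR1A-depleted, POLR2A-depleted, actinomycin D and control libraries. SCARNA12 stands at 30.7 to 35.2 CPM with actinomycin D, above all control libraries, while SNORD3A in each treated group overlaps the controls.

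U3 counts cannot be read copy by copy. SNORD3A, the copy with the most counts, was at 150.0, 250.2 and 224.7 CPM in POLR1A-depleted libraries, 280.2, 66.9 and 282.6 CPM in POLR2A-depleted libraries, 464.6, 504.1 and 408.9 CPM with actinomycin D, and 242.9, 584.1 and 506.7 CPM in controls. It overlapped the controls in each comparison. SNORD3D was at 5.29, 18.4 and 43.8 CPM in POLR1A-depleted libraries, 60.3, 86.1 and 79.7 CPM in POLR2A-depleted libraries, and 123.7, 106.2 and 199.0 CPM with actinomycin D. In controls it was at 27.9, 0 and 0 CPM. The share of U3 counts given to SNORD3A ran from 27.4% in the second POLR2A-depleted library to 96.4% in the second control library, while the copies are at least 98.2% identical to it. SNORD3D was called higher with POLR2A depleted (log2 fold change 3.21, SE 1.15, adjusted p = 0.0381) and with actinomycin D (4.13, SE 1.12, adjusted p = 0.0131). The first of these calls was lost in 14 of 19 alternatives and the second in 2, and estimated counts that pass between copies make either fold change uncertain.

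Summed over all SNORD3 genes, U3 was at 207, 311 and 390 CPM in POLR1A-depleted libraries, 411, 244 and 425 CPM in POLR2A-depleted libraries, 699, 633 and 718 CPM with actinomycin D, and 340, 606 and 530 CPM in controls. All actinomycin D libraries were above all control libraries, and above all libraries of both depletions. Against the controls the summed change was -0.70 (SE 0.31, adjusted p = 0.112) with POLR1A depleted, -0.45 (SE 0.31, adjusted p = 0.239) with POLR2A depleted and 0.47 (SE 0.31, adjusted p = 0.234) with actinomycin D, and no comparison passed. Actinomycin D exceeded POLR1A depletion by 1.17 (SE 0.31, adjusted p = 0.0107) and POLR2A depletion by 0.93 (SE 0.31, adjusted p = 0.0248). The second of these was lost without the second POLR2A-depleted library (0.74, adjusted p = 0.0709) and without the first or the third actinomycin D library (adjusted p = 0.0517 and 0.0566), and with library totals alone (0.69, adjusted p = 0.0533). Without the 2 libraries that stand apart, picked from the members' own levels, the change with POLR1A depleted was -0.90 and passed (adjusted p = 0.0276). With libraries scaled to mitochondrial mRNAs the changes with POLR2A depleted (-0.73, adjusted p = 0.00211) and with actinomycin D (1.43, adjusted p = 1.31e-06) passed too. The sum was chosen as an added measure after the values of the copies were seen.

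**Figure D2:**
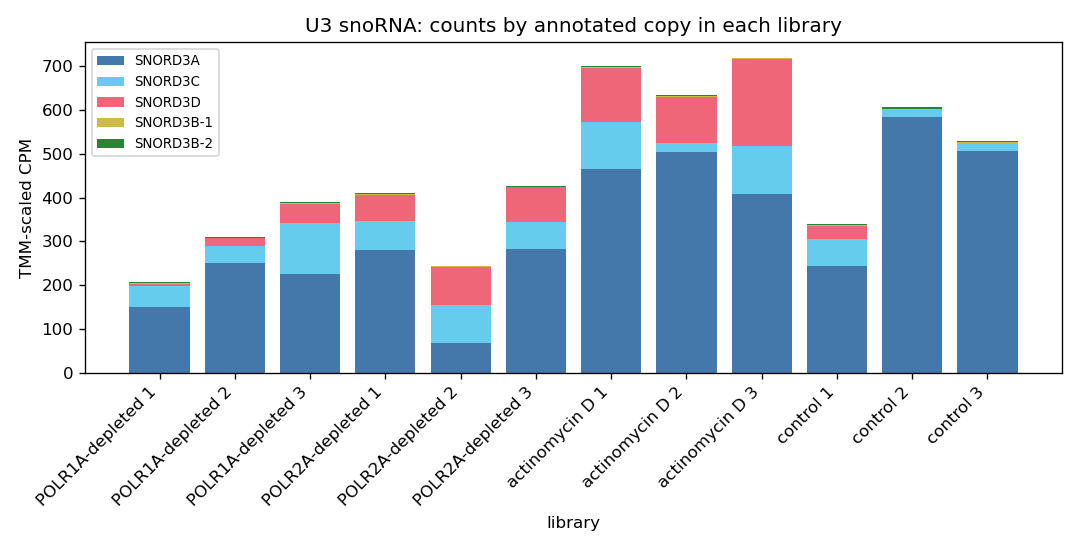
TMM-scaled CPM of the 5 U3 copies stacked for each of the 12 libraries, in the order POLR1A-depleted, POLR2A-depleted, actinomycin D and control. SNORD3D is absent from the second and the third control libraries, and the full height is greatest with actinomycin D, at 633 to 718 CPM.

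Of 10 tested members of the list of processing snoRNAs, 0 rose and 0 fell under POLR1A depletion. Under POLR2A depletion 2 rose and 1 fell, and under actinomycin D 2 rose and 1 fell. Of all genes, 39.1%, 61.4% and 53.4% were called in either direction. SNORD3D and SNORD22 were the members that rose. The member that fell was SNORD3B-1 under POLR2A depletion and SNORD3B-2 under actinomycin D. SNORD22 passed the filter through treated libraries alone and had to differ from the controls. The others are U3 copies, between which counts may pass, so these calls only describe the list. SNORA73A (U17) was at 66.6, 75.8 and 66.3 CPM in POLR1A-depleted libraries, 84.1, 25.9 and 74.2 CPM in POLR2A-depleted libraries, 116.2, 102.6 and 125.0 CPM with actinomycin D, and 58.2, 113.8 and 97.8 CPM in controls. Its groups overlapped in each comparison with the controls, and the changes of -0.38 (SE 0.39), -0.57 (SE 0.40) and 0.34 (SE 0.38) did not pass. SNORD13 (U13) changed by -0.24, -0.10 and 0.43 (SE 0.38 to 0.40), and SNORD17, the longest box C/D member, by -0.51, -0.61 and 0.26 (SE 0.31 to 0.32), none of them called. These values rest on the libraries that stand apart. Without them SNORA73A fell by 0.6015 (adjusted p = 0.000453) and SNORD17 by 0.7463 (adjusted p = 0.000685) with POLR1A depleted, while under POLR2A depletion SNORA73A fell by 0.4398 (adjusted p = 0.00594) and SNORD17 fell by 0.6045 (adjusted p = 0.00433). SNORD3B-2, the U3 copy with the lowest counts, fell by 2.11 with actinomycin D (SE 0.39, adjusted p = 9.81e-05), and the sharing of reads among copies applies to it too.

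With POLR1A depleted, no tested member rose and 6 of 70 fell, or 8.57%, against 39.1% of all 23593 genes called in either direction (edgeR, adjusted p under 0.05). Higher and lower calls were 20.6% and 18.6% of all genes. At an unadjusted p under 0.05 there were 12 members, and DESeq2 also gave 0 higher and 6 lower. Without the 2 libraries that stand apart, 2 members were higher and 14 lower of 84 tested. The class medians of the log2 fold change were -0.43 for box C/D members, -0.26 for box H/ACA members and -0.14 for scaRNAs, beside 0.01 for all tested genes.

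The members that fell were SNORD28, SNORD104, SNORD33, SNORA33, SNORA21B and SNORA53. SNORD28 passed the filter through the controls alone, so it had to lie lower. SNORA33, which lies in RPS12, had 26, 32 and 27 counts in POLR1A-depleted libraries, against 34, 57 and 68 counts in controls, and fell by 1.32 (SE 0.37, adjusted p = 0.00676). Its libraries did not overlap after scaling. SNORD104, which lies in SNHG25, fell by 1.33 (SE 0.46, adjusted p = 0.0242), and the host fell by 0.87 (SE 0.22, adjusted p = 0.00293). SNORA21B fell by 1.29 (SE 0.45, adjusted p = 0.0247), with its host RPL23 down by 0.38 (SE 0.09, adjusted p = 0.00423). RPS12, the host of SNORA33, changed by -0.13 (SE 0.08, adjusted p = 0.205), which did not pass. Of 19 alternatives, the call of SNORA53 was lost in 11, that of SNORD104 in 7, that of SNORD33 in 6, that of SNORA21B in 5, that of SNORD28 in 2 and that of SNORA33 in 1.

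With POLR2A depleted, 4 tested members rose and 17 fell of 70, or 30.0%, against 61.4% of all genes called in either direction. Higher and lower calls were 33.2% and 28.2% of all genes. Without the 2 libraries that stand apart there were 3 higher and 16 lower of 84. The class medians were -0.80 for box C/D members, -0.47 for box H/ACA members and -0.16 for scaRNAs, beside 0.08 for all tested genes. Of the box C/D members 2 rose and 8 fell, of the box H/ACA members 1 rose and 9 fell, and of the scaRNAs 1 rose and 0 fell.

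SNORD36A had 3, 2 and 8 counts in POLR2A-depleted libraries, against 21, 30 and 23 counts in controls. It fell by 2.34 (SE 0.64, adjusted p = 0.00323), while its host RPL7A changed by 0.02 (SE 0.06, adjusted p = 0.755). SNORD32A had 0, 0 and 1 counts in POLR2A-depleted libraries, against 15, 19 and 18 counts in controls, a ratio of 0.0204 (95% counting interval 0.000508 to 0.119). These snoRNAs, guides of ribosomal RNA methylation, were below all control libraries. SNORD104 fell by 1.81 and SNORA33 by 1.58. Of the 17 lower calls, 8 held in all 19 alternatives: SNORD28, SNORD32A, SNORD36A, SNORD39, SNORD104, SNORA17B, SNORA33 and SNORA74A. However, SNORD28, SNORD32A, SNORD36A, SNORA71B and SNORA74D would not have passed the filter without the controls. The filter thus favoured a lower call for these genes, whatever the alternatives gave. The call of SNORA71B was lost in 10, that of SNORA5A in 8, that of SNORA74D in 7 of 18, that of SNORD33 in 6, that of SNORA53 in 5, those of SNORD65 and SNORD3B-1 in 4 each, that of SNORA23 in 2 and that of SNORA48 in 1. SNORD65 changed by -1.23, and by -0.50 (adjusted p = 0.349) without the first control library.

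SNORD39 had 8, 5 and 12 counts in POLR2A-depleted libraries, against 27, 21 and 51 counts in controls, and fell by 1.83 (SE 0.48, adjusted p = 0.00225). Its host MIR31HG rose by 3.38 (SE 0.18, adjusted p = 1.1e-10) in the same comparison, so the snoRNA and its host moved in opposite directions. SNORA17B (ENSG00000276161) was at 2.21, 1.303 and 1.41 CPM in POLR2A-depleted libraries, against 2.50, 4.26 and 4.61 CPM in controls. It fell by 1.22 (SE 0.27, adjusted p = 0.000475), and its host SNHG7 fell by 1.95 (SE 0.09, adjusted p = 1.08e-13). A second gene of the same symbol is annotated over the same stretch and strand of chromosome 9, so counts may be divided between these annotations. That second gene had 24, 23 and 0 counts in controls and none in POLR2A-depleted libraries.

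SCARNA12 was the scaRNA that rose, at 21.3, 17.8 and 11.7 CPM in POLR2A-depleted libraries, against 6.71, 8.63 and 9.64 CPM in controls. The change was 1.02 (SE 0.28, adjusted p = 0.0100), and without the 2 libraries that stand apart it was 0.84 and did not pass (adjusted p = 0.0977). Its host PHB2, which encodes prohibitin 2, changed by 0.09 (SE 0.06, adjusted p = 0.225).

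With actinomycin D, 10 tested members rose and 8 fell of 70, or 25.7%, against 53.4% of all genes called in either direction. Higher and lower calls were 24.9% and 28.5% of all genes. Without the 2 libraries that stand apart there were 13 higher and 10 lower of 84. The scaRNAs had a median log2 fold change of 0.52 with 5 higher and 0 lower of 12, the box H/ACA members 0.30 with 3 higher and 2 lower of 37, and the box C/D members -0.29 with 2 higher and 6 lower of 21. The median of all tested genes was -0.06. The box C/D median was 0.04 for members with 200 or more summed counts and 0.66 with scaling to mitochondrial mRNAs, so its sign depends on the abundant members and the scaling.

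**Figure D3:**
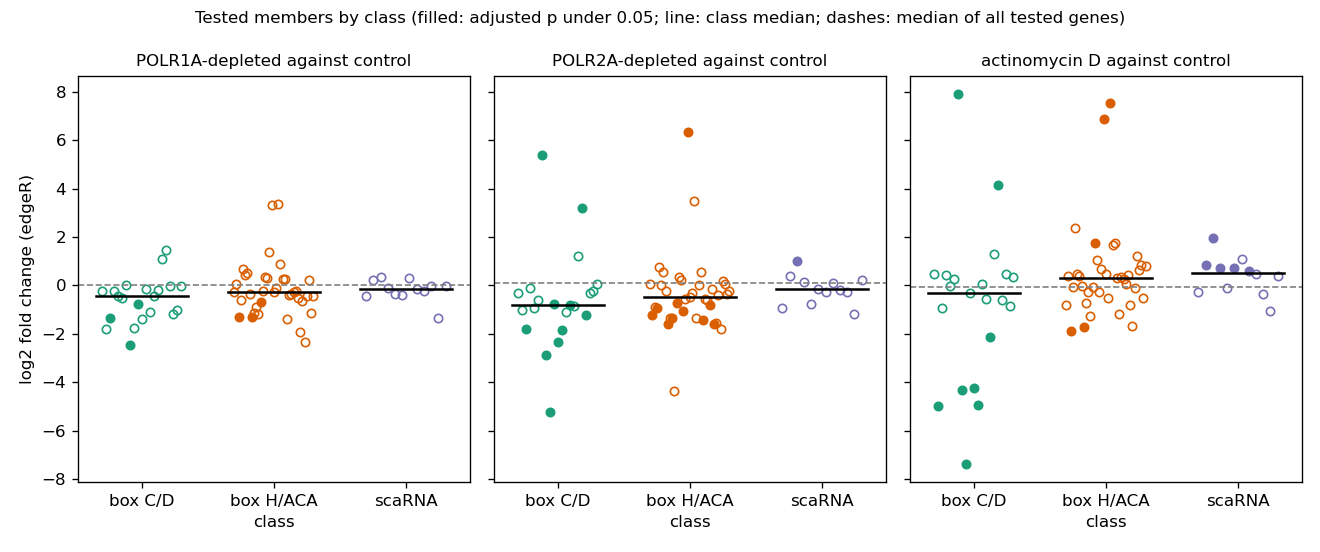
Log2 fold change (edgeR) of each tested member in the 3 comparisons with the controls, by class, with filled points at an adjusted p under 0.05, the class median as a line and the median of all tested genes as dashes. With actinomycin D the scaRNAs lie mostly above the dashes while 5 box C/D members lie below -4.

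SCARNA12, a guide for modification of a spliceosomal RNA, was at 30.9, 30.7 and 35.2 CPM with actinomycin D, against 6.71, 8.63 and 9.64 CPM in controls. The libraries did not overlap, and the change was 1.94 (SE 0.27, adjusted p = 0.000146). SCARNA10 was at 32.7, 26.1 and 32.7 CPM with actinomycin D, against 12.02, 18.88 and 18.81 CPM in controls, and rose by 0.86 (SE 0.18, adjusted p = 0.00161). SCARNA13 rose by 0.74 (SE 0.18, adjusted p = 0.00365). SCARNA2, transcribed from its own promoter, rose by 0.73 (SE 0.23, adjusted p = 0.0236), but the call was lost when any of 5 libraries was left out.

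SCARNA5 was at 41.7, 39.0 and 42.2 CPM with actinomycin D, against 23.3, 32.6 and 26.1 CPM in controls. It rose by 0.58 (SE 0.09, adjusted p = 1.98e-05), while its host ATG16L1, an autophagy gene, fell by 1.37 (SE 0.07, adjusted p = 1.51e-13). SCARNA6, in the same host, changed by 0.47 (SE 0.20, adjusted p = 0.0502) and did not pass. Of the others, SCARNA7 changed by -0.36 (SE 0.39, adjusted p = 0.484) and SCARNA9 by 0.40 (SE 0.33, adjusted p = 0.347), and neither passed.

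The tested short box C/D snoRNAs lay on the other side. All 9 tested members under 100 nt were box C/D snoRNAs with negative changes, with medians of -1.33 (POLR1A depleted), -1.81 (POLR2A depleted) and -4.23 (actinomycin D). Of these 9, called lower were 3 under POLR1A depletion, 7 under POLR2A depletion and 5 under actinomycin D, beside 18.6%, 28.2% and 28.5% of all genes called lower. Without the 2 libraries that stand apart the called counts were 1, 5 and 5 of 10. SNORD28 had 21, 21 and 23 counts in controls and at most 9 in any other library. It passed the filter through the controls alone, so it had to lie lower. SNORD32A and SNORD36A would not have passed without the controls either. The other 19 of the 28 members under 100 nt were not tested, so the shared sign covers the tested ones only. Members of 180 nt or more had medians of -0.24, -0.26 and 0.34 in the same order of treatments.

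**Figure D4:**
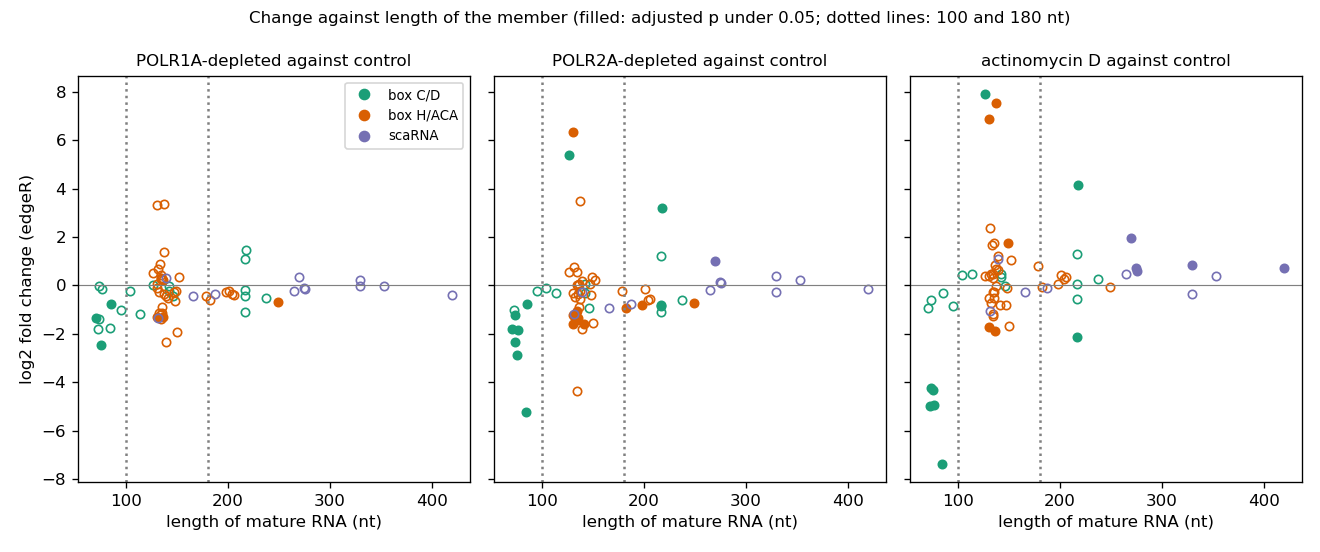
Log2 fold change of each tested member against the length of its mature RNA, in the 3 comparisons with the controls, coloured by class and filled at an adjusted p under 0.05. Left of the dotted line at 100 nt all 9 points lie below 0, for the 9 of 28 such members that passed the filter.

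SNORD39 had 2, 2 and 0 counts with actinomycin D, against 27, 21 and 51 counts in controls, and fell by 4.95 (SE 0.62, adjusted p = 5.39e-07). SNORD36A had 2, 0 and 3 counts with actinomycin D, against 21, 30 and 23 counts in controls, and fell by 4.23 (SE 0.72, adjusted p = 3.58e-05). Both were below all control libraries. RPL7A, the host of SNORD36A, rose by 0.59 (SE 0.06, adjusted p = 1.97e-08).

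SNORD32A had no count with actinomycin D and 15, 19 and 18 counts in controls. As assigned, its counts were at least 24.2-fold lower when the group's 0 is replaced by 3 counts. It overlaps an exon of RPL13A and would not have passed the filter without the controls. SNORD33, from the same host RPL13A, was at 2.86, 2.59 and 2.26 CPM with actinomycin D, against 2.34, 3.60 and 3.45 CPM in controls. Its change of -0.29 (SE 0.28) did not pass (adjusted p = 0.394). RPL13A itself rose by 0.79 (SE 0.08, adjusted p = 2.29e-07). SNORD102, over RPL21, had 0, 2 and 0 counts with actinomycin D, against 10, 20 and 26 counts in controls, a ratio of 0.0256 (95% counting interval 0.00303 to 0.097).

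SNORD28 and SNORD22, both over exons of SNHG1, were called in opposite directions with actinomycin D. SNORD28 passed the filter through the controls alone and SNORD22 through treated libraries alone, so the filter fixed both directions. Counts may also be divided between each of them and SNHG1. SNORD28 had 3, 0 and 1 counts with actinomycin D, against 21, 21 and 23 counts in controls, and fell by 4.33 (SE 0.94, adjusted p = 0.000581). SNORD22, the processing snoRNA of 126 nt, had 26, 42 and 38 counts with actinomycin D and none in any control library, so it was at least 25.4-fold higher. It also had no count in the POLR1A-depleted libraries, and 3, 2 and 7 counts in the POLR2A-depleted ones, at least 4.25-fold over the controls. SNHG1 fell by 0.93 with actinomycin D (SE 0.05, adjusted p = 2.59e-13), a change of -0.02 when scaled to mitochondrial mRNAs.

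A pair of further tested members had no count in the controls. SNORA67, over EIF4A1, had 37, 22 and 21 counts with actinomycin D, at least 19.1-fold over the controls. SNORA61, over SNHG12, had 14, 22 and 16 counts, at least 12.4-fold. SNORA48, which shares the host EIF4A1 with SNORA67, changed by -0.29 (SE 0.41, adjusted p = 0.595). SNORD22, SNORA67 and SNORA61 passed the filter through treated libraries alone, so they had to differ from the controls. Each of them overlaps a host exon, so counts may be divided between it and the host. SNORA57, over CSKMT, rose by 1.77 (SE 0.52, adjusted p = 0.00664).

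SNORA33 was at 0.701, 1.35 and 0.987 CPM with actinomycin D, against 2.65, 3.42 and 3.97 CPM in controls, and fell by 1.71 (SE 0.38, adjusted p = 0.000634). Its host RPS12 rose by 0.92 (SE 0.08, adjusted p = 2.55e-08). SNORA21B fell by 1.89 (SE 0.46, adjusted p = 0.00149) while RPL23 rose by 0.43 (SE 0.09, adjusted p = 0.00113). Each of these calls was lost with scaling to mitochondrial mRNAs.

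Of the 134 members, 121 lay within a gene on the same strand, 48 of them over an annotated exon, and 13 had no such gene. Across the 62 tested members with a tested host, Pearson's r of the log2 fold changes was 0.09 under POLR1A depletion, -0.21 under POLR2A depletion and -0.24 under actinomycin D. By rank (Spearman's rho) the values were 0.21, -0.06 and -0.146, so the size of r depends on the measure. For scaRNAs (12 pairs) r was 0.28, 0.49 and 0.40 in that order, for box C/D members (15 pairs) 0.45, -0.24 and -0.42, and for box H/ACA members (35 pairs) -0.02, -0.245 and -0.248. These are descriptions: points share libraries, and members may share a host. Reads of unspliced host RNA over a snoRNA cannot be told from the snoRNA. Of the 13 tested members in ribosomal protein genes, 0 rose and 3 fell under POLR1A depletion, 0 and 4 under POLR2A depletion and 0 and 5 under actinomycin D. That is 23.1%, 30.8% and 38.5% called, all of them lower, beside 18.6%, 28.2% and 28.5% of all genes called lower. In either direction, 39.1%, 61.4% and 53.4% of all genes were called. The lower calls under POLR2A depletion and actinomycin D include SNORD32A and SNORD36A. These would not have passed the filter without the controls, so the shares only describe the tested members.

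**Figure D5:**
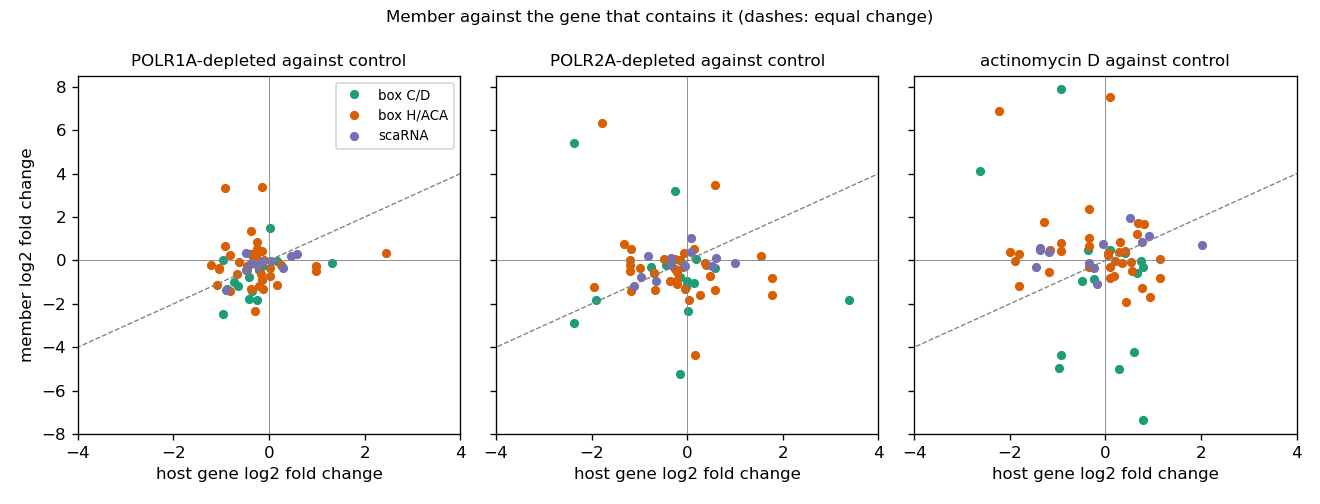
Log2 fold change of each tested member against that of the gene that contains it, in the 3 comparisons with the controls, with dashes at equal change. With actinomycin D 5 box C/D members lie below -4 over hosts that moved by less than 1 in either direction, and in the POLR1A panel SCARNA2, whose containing gene is at -7.36, lies outside the axis.

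With actinomycin D against POLR1A depletion 14 members were higher and 4 lower of 70, beside 56.2% of all genes called in either direction (24.4% higher and 31.8% lower). With actinomycin D against POLR2A depletion 18 were higher and 4 lower, beside 70.9% of all genes (31.1% higher and 39.8% lower). In both, a smaller share of members than of all genes was called, higher as well as lower. The median change of the members was nevertheless above that of all genes. It was 0.46 beside -0.115 against POLR1A depletion, and 0.656 beside -0.175 against POLR2A depletion. Between POLR1A and POLR2A depletion 6 were higher and 3 lower, beside 62.2% of all genes (29.1% higher and 33.2% lower). SCARNA12 was higher with actinomycin D by 1.59 (SE 0.25, adjusted p = 0.000374) against POLR1A depletion and by 0.92 (SE 0.25, adjusted p = 0.0077) against POLR2A depletion. SNORA17B (ENSG00000276161) was higher with actinomycin D than with POLR2A depleted by 1.602 (SE 0.26, adjusted p = 1.33e-05), and higher with POLR1A than with POLR2A depleted by 1.26 (SE 0.26, adjusted p = 0.000278). SNORD39 was higher with POLR1A than with POLR2A depleted by 1.70 (SE 0.47, adjusted p = 0.00369). SNORA5A, in TBRG4, was higher by 1.36 (SE 0.41, adjusted p = 0.00661) in that comparison.

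Proteins of the particles, and factors of their assembly, processing and location, were read from their mRNAs. The list holds 25 genes, DBR1, EXOSC10, PARN, TGS1 and COIL among them. Of the 25, 2 were higher and 19 lower under POLR1A depletion, 1 and 17 under POLR2A depletion, and 8 and 12 under actinomycin D. That is 84%, 72% and 80% called, beside 39.1%, 61.4% and 53.4% of all genes. NOP56, a core box C/D protein, fell by 1.20 (SE 0.05, adjusted p = 7.49e-14), 1.35 (SE 0.05, adjusted p = 5.33e-15) and 0.93 (SE 0.05, adjusted p = 9.28e-13) in that order. FBL, which encodes fibrillarin, fell by 0.54 (SE 0.06, adjusted p = 3.43e-07) with POLR1A depleted, fell by 0.30 (SE 0.06, adjusted p = 0.000327) with POLR2A depleted and rose by 0.40 (SE 0.06, adjusted p = 7.38e-06) with actinomycin D. COIL, which encodes coilin of the Cajal body, changed by -0.06 (SE 0.10, adjusted p = 0.692) with POLR1A depleted, and fell by 1.82 (SE 0.12, adjusted p = 3.27e-10) with POLR2A depleted and fell by 1.97 (SE 0.11, adjusted p = 6.31e-11) with actinomycin D. With scaling to mitochondrial mRNAs the counts were 3 higher and 7 lower under POLR1A depletion, 0 and 21 under POLR2A depletion, and 18 and 3 under actinomycin D, the NOP56 change with actinomycin D was -0.02, and under POLR1A depletion FBL (-0.18, adjusted p = 0.32) was not called and COIL turned to 0.32 (adjusted p = 0.0939).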

How the data were processed

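Gene-level expected counts were deposited by the authors (estimated counts, 76.1% of them whole numbers). The submitters' processing notes name RSEM 1.3.3, STAR, HTSeq 2.0.2 and Trim Galore 0.6.10 without their roles; the strand setting is not given in the sources used here. Counts were rounded, filtered with filterByExpr (23593 genes), scaled by TMM and fitted over all 12 libraries with edgeR 4.0.16 (quasi-likelihood test, R 4.3.3). Benjamini-Hochberg adjustment ran over all genes, with calls at an adjusted p under 0.05. SE is the size of the log2 fold change divided by the root of F. Alternatives used DESeq2 1.42.0, other scalings and filters, and left-out libraries.

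Sequences, hosts and positions came from GENCODE 29 (GRCh38). Ratios have exact 95% intervals, and bounds against 0 use a floor of 3 counts over the group; both cover counting error only. Totals ran from 11289272 to 27394059 counts.

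The members, lists and rules were chosen with earlier results of these data known. Named, with their hosts, were the 10 members of highest mean level, the tested processing snoRNAs and the tested members with their own promoter. Also named, with hosts, were called members with an average of 10 or more counts per library and groups that did not overlap. Of these, the 6 highest and 6 lowest changes against the controls and the 3 highest and 3 lowest between treatments were taken. SNORD28, SNORD32A, SNORD102, SNORA67, SNORA61, SNORD33, SNORA53, SNORA23, SNORA71B, SNORA74A, SNORA74D, SCARNA6 and SCARNA7 were named after their values were seen. Genes with near-identical copies (13 members at 95% or more identity) or an overlapping antisense gene (15) are uncertain.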

Additional observations from a re-analysis of the deposited data

How the results depend on the processing

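With scaling to 13 mitochondrial mRNAs, which moved the median of all genes to 0.369 (POLR1A depleted), -0.203 (POLR2A depleted) and 0.823 (actinomycin D), called members were 2 higher and 1 lower with POLR1A depleted, 26 lower with POLR2A depleted and 35 higher with actinomycin D. In either direction they were 31 between the depletions, 34 for actinomycin D against POLR1A depletion and 51 against POLR2A depletion; such counts between treatments are in either direction throughout. Medians were -0.08694 (box C/D), 0.1207 (box H/ACA) and 0.2455 (scaRNA) with POLR1A depleted, and 0.6566, 1.226 and 1.469 with actinomycin D. The sign turned for SNORA53 (0.9231) and SNORA23 (0.8735) with actinomycin D, for SNORA33 between actinomycin D and POLR2A depletion (1.085), and between the depletions for SCARNA2 (0.3784), SCARNA5 (0.3813), SCARNA9 (0.4441), SCARNA10 (0.4395) and SCARNA13 (0.4229). With no filter, calls were 2 higher and 10 lower with POLR1A depleted, 15 lower with actinomycin D and 14 between the depletions, and actinomycin D medians were -0.8422 (box C/D) and 0.1024 (box H/ACA). Fits of only the 2 groups gave 1 higher and 10 lower with POLR1A depleted, 2 higher with POLR2A depleted, 5 between the depletions, 29 for actinomycin D against POLR1A depletion and a box C/D median of -0.47 with actinomycin D. Without the second POLR2A-depleted and first control libraries (chosen after seeing the data), calls were 2 higher and 14 lower with POLR1A depleted and 32 for actinomycin D against POLR1A depletion. Medians were then -0.6953, -0.5212 and -0.3068 with POLR1A depleted, and 0.1095 (box H/ACA) and 0.4006 (scaRNA) with actinomycin D. With 200 or more summed counts, calls were 2 higher and 11 lower with POLR2A depleted, 6 and 4 with actinomycin D, 5 between the depletions and 10 for actinomycin D against POLR1A depletion, and box C/D medians were -0.2423 with POLR1A depleted and 0.04438 with actinomycin D. Without near-identical members they were -0.773 and -0.5839, and with library totals alone the scaRNA median was 0.4112 with actinomycin D. The cause of these shifts was not tested.

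Leaving out 1 library at a time gave 0 to 2 higher and 4 to 12 lower members with POLR1A depleted, 8 to 13 lower with actinomycin D and 15 to 29 for actinomycin D against POLR1A depletion. Medians ran from -0.6416 to -0.4248, -0.5189 to -0.1599 and -0.3043 to 0.01295 with POLR1A depleted, and from -0.7203 to -0.2382, 0.003581 to 0.3896 and 0.4041 to 0.6726 with actinomycin D. Libraries with the same number deviated together with r of -0.08 to 0.047 over all genes, so the numbers were not taken as pairs; with a replicate block the calls were 0 higher and 5 lower, 3 and 14, and 10 and 8 in the comparisons with the controls.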
